A study of Homo sapiens with 6 samples.

Results

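The TSC22 domain family was examined in RNA-Seq data from BT549 cells, a long-established line of basal-like breast cancer cells. Its 4 members, TSC22D1, TSC22D2, TSC22D3 and TSC22D4, were taken by gene symbol from a count table of 58735 Ensembl genes. The family was picked because TSC22D1 was already known to rise strongly in these libraries, so the changes of the members are given below as a description, with no test. The control group was 3 libraries from cells given DMSO, the solvent. The treated group was 3 libraries from cells given AS1842856, a small molecule that binds FOXO1 and blocks its contact with DNA, for 48 h. The dose is 200 nM in the sample labels and 1 μM in the methods of the study, and it was not resolved here. All 6 libraries come from 1 cell line with no genetic change added, and the replicates are named A, B and C in each group. The DMSO libraries held 22050288, 15289500 and 18580205 counts (A, B and C), and the AS1842856 libraries held 16643243, 22981832 and 17888328.

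The cell line was checked against marker genes. The 5 mesenchymal markers, of which VIM had the highest mean in DMSO, had a summed level per length of 642.6, 645.4 and 626.4 FPKM in DMSO (A, B and C; fragments scaled by library size and by exon length) and 522.7, 522.9 and 515.0 with AS1842856. Within this sum FN1 went up, from a mean of 25.8 to 56.3 FPKM, while VIM, SPARC, CD44 and CDH2 went down. The 5 epithelial markers, led by KRT18, summed to 17.6, 16.4 and 15.6 FPKM in DMSO and to 1.75, 1.68 and 1.66 with AS1842856. Almost all of this difference lay in the keratins KRT8 and KRT18, while EPCAM, CDH1 and ESRP1 had 8 counts or fewer in every library. In bulk RNA, fewer cells with these transcripts and less RNA per cell cannot be told apart, and their part in the results below was not tested. Of the 3 receptors that basal-like tumors lack, ESR1 and PGR had 4 counts or fewer in every library, and ERBB2 was at 4.50 FPKM in DMSO and 2.41 with AS1842856 (means, n = 3 each). PTPRC, a leukocyte marker, had 13 to 26 counts in DMSO and 44 to 74 with AS1842856.

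TSC22 domain proteins share a conserved stretch, the TSC box, that is followed by a leucine zipper, through which they pair with themselves and with each other. TSC22D1 was found as a transcript induced by TGF-beta, and it is made as long and short proteins from separate start sites. TSC22D3, also called GILZ (glucocorticoid-induced leucine zipper), is a well-known target of the glucocorticoid receptor and of FOXO factors. Long TSC22 proteins bind the pseudokinase NRBP1 and kinases of the WNK group, which set cell volume and ion transport.

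The 4 genes lie on 4 chromosomes (GRCh38, GENCODE 29). TSC22D1 (ENSG00000102804) spans chr13:44432143-44577147 on the minus strand, TSC22D2 (ENSG00000196428) chr3:150408335-150466431 on the plus strand, TSC22D3 (ENSG00000157514) chrX:107713221-107777342 on the minus strand, and TSC22D4 (ENSG00000166925) chr7:100463359-100479279 on the minus strand. What the members share is shown by 150 bases of coding sequence around the TSC box, the ungapped window in which TSC22D2, TSC22D3 and TSC22D4 matched TSC22D1 best. Capitals mark the 84 bases (56.0%) that are the same in all 4 genes.
TSC22D1: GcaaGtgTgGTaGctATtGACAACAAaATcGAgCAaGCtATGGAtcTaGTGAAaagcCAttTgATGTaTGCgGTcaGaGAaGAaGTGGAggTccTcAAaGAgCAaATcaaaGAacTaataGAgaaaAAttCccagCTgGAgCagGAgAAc
TSC22D2: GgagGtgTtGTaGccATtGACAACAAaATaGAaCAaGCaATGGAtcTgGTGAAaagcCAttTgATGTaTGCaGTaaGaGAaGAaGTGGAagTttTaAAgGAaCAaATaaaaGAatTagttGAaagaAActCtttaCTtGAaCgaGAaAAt
TSC22D3: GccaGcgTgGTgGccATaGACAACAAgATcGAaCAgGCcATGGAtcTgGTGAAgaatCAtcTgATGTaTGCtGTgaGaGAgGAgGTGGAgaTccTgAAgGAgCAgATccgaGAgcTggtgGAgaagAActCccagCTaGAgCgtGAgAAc
TSC22D4: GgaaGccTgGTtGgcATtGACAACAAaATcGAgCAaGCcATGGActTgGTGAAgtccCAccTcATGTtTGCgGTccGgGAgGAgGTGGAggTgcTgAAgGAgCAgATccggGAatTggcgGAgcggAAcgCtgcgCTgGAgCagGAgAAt
Each stretch is read 5′ to 3′ on the strand of its gene and is split over 2 exons. The stretches lie within chr13:44434776-44436085, chr3:150457086-150458483, chrX:107714642-107715940 and chr7:100467061-100467593, in the order printed. It covers coding bases 136 to 285 of a short TSC22D1 transcript and 133 to 282 of a TSC22D3 transcript. In the transcripts used for TSC22D2 and TSC22D4 it covers 2041 to 2190 and 937 to 1086, near the end of a much longer coding sequence. This contrast depends on the transcripts used, as TSC22D1 has complete forms of up to 3219 coding bases and TSC22D4 has a form of 468. TSC22D1 was the same as TSC22D2 and as TSC22D3 at 78.0% of the 150 bases, and as TSC22D4 at 72.0%. The least alike pair was TSC22D2 and TSC22D4, with 67.3%. The longest run without a difference in any pair was 23 bases, in TSC22D1 with TSC22D2 and with TSC22D4.

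All 4 members passed the filter on low counts, as did 14338 of the 58735 genes. TSC22D1 had 3865, 2868 and 3398 counts in DMSO (A, B and C) and 11112, 15424 and 11518 with AS1842856. Scaled to a common library size by TMM (CPM), these were 176, 186.7 and 182.9 CPM in DMSO and 666.8, 675.5 and 645.9 with AS1842856. Every AS1842856 library lay far above every DMSO library, and the libraries of a group lay close together. The means were 182 ± 5.42 and 663 ± 15.2 CPM (SD, n = 3 each), with a log2 fold change of 1.87 (standard error 0.04) or 3.65-fold. Of the genes tested, 98.4% had a lower log2 fold change, and TSC22D1 ranked 235 from the top.

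TSC22D2, a long member known for its response to osmotic stress in kidney cells, had 82.6, 73.5 and 76.2 CPM in DMSO and 106, 105 and 109.5 with AS1842856. The groups did not overlap, but the distance between them was small beside that of TSC22D1. From 77.5 ± 4.68 to 106.8 ± 2.35 CPM (SD, n = 3 each), the level was 1.38-fold higher, a log2 fold change of 0.46 (standard error 0.05). TSC22D4, a member linked to lipid handling and insulin sensitivity in the liver, had 65.8, 60.0 and 66.5 CPM in DMSO and 78.0, 77.0 and 71.5 with AS1842856. Here too the groups did not overlap, and the nearest libraries were 4.98 CPM apart. The log2 fold change was 0.23 (standard error 0.05), from 64.1 ± 3.60 to 75.5 ± 3.49 CPM.

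TSC22D3 had only 85, 55 and 61 counts in DMSO and 64, 70 and 56 with AS1842856, or 3.87, 3.58 and 3.28 CPM against 3.84, 3.07 and 3.14. The groups overlapped, with AS1842856 replicate A near the highest DMSO library. Its means of 3.58 ± 0.294 and 3.35 ± 0.427 CPM gave a log2 fold change of -0.11 (standard error 0.20), well within the spread between libraries. With so few counts, a change of this size was not detectable at this depth. In the genes tested, 59.9% had groups that did not overlap, 29.5% with AS1842856 higher and 30.3% with it lower, and TSC22D1, TSC22D2 and TSC22D4 were of the first kind. Since the family was chosen on this contrast, nothing is read from that count.

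**Figure D1:**
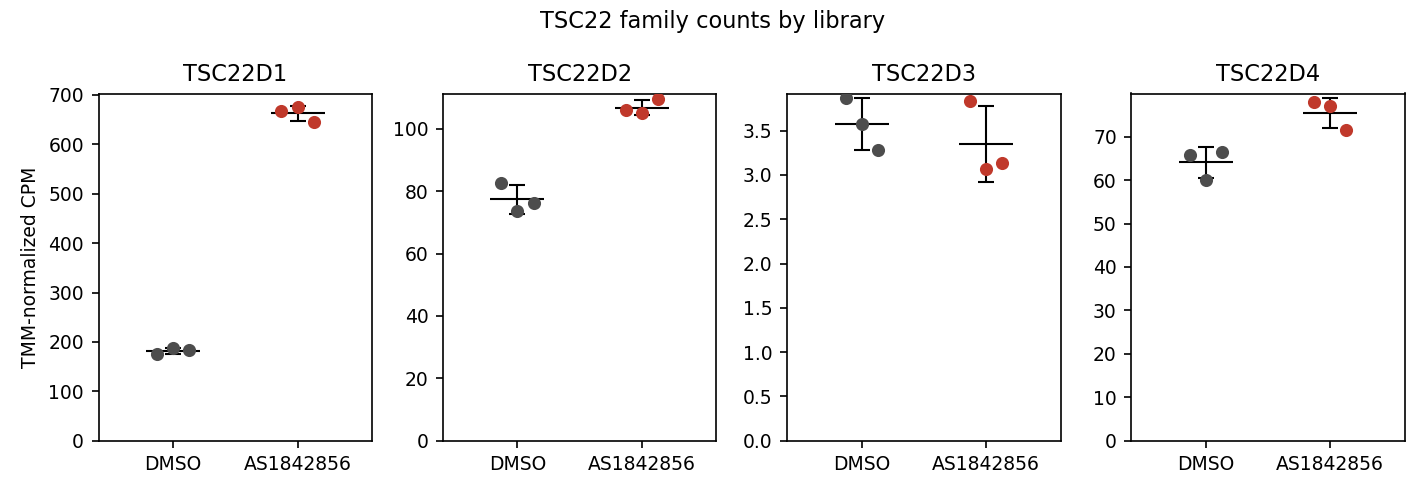
TMM-normalized CPM (vertical axis, from 0, with its own scale in each panel) of the 4 members in the 3 DMSO and 3 AS1842856 libraries. Points are libraries A, B and C from left to right, and bars are the mean with its SD; TSC22D1 goes from 182 to 663 CPM, and TSC22D3 overlaps between groups near 3 CPM.

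The members stood at different places in the range of all genes. In DMSO, TSC22D1 had a higher level per length than 83.7% of the genes tested, TSC22D4 than 80.0%, TSC22D2 than 58.5% and TSC22D3 than 18.1%. The size of the log2 fold change was above that of 96.7% of the genes for TSC22D1, of 70.4% for TSC22D2, of 45.5% for TSC22D4 and of 22.8% for TSC22D3. The median over all genes tested was 0.00.

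**Figure D2:**
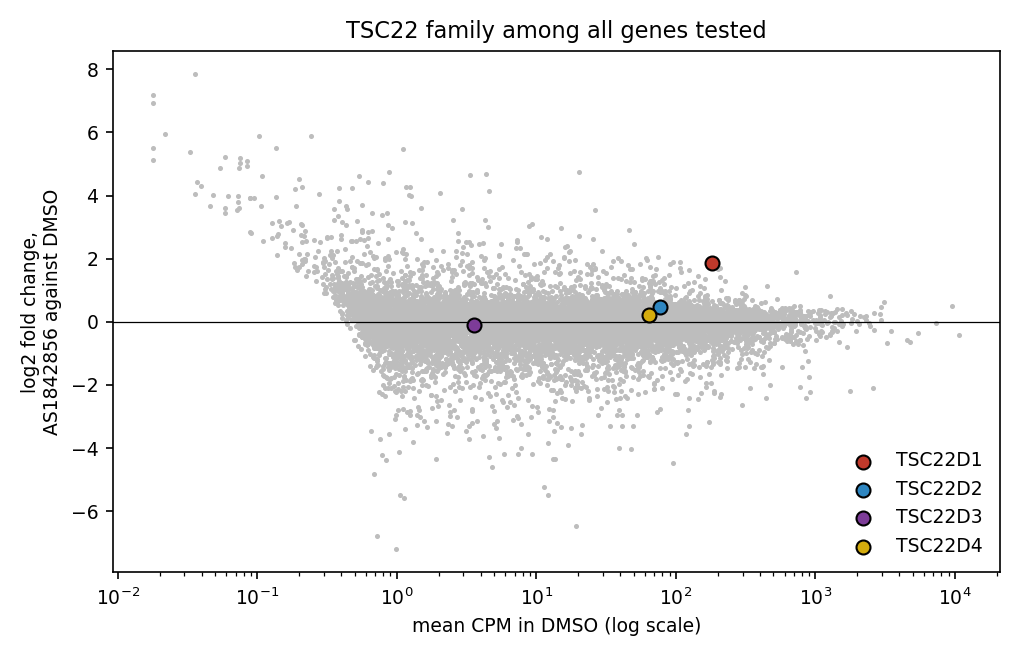
Log2 fold change (vertical axis) against mean CPM in DMSO (horizontal axis, log scale) for the genes tested (grey), without the 7 that had no counts in DMSO, with the 4 members as colored points. TSC22D1 lies at 1.87 above a wide band of genes, TSC22D2 and TSC22D4 lie at 0.46 and 0.23, and TSC22D3 lies at -0.11 among genes of low count.

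Levels of different genes can be compared only per length, for which the FPKM values of the authors were used. The order in DMSO was TSC22D1, TSC22D4, TSC22D2 and TSC22D3. TSC22D1 had 20.4, 21.6 and 21.2 FPKM (A, B and C) and TSC22D4 17.6, 16.0 and 17.8, a ratio of means of 1.23. TSC22D2 had 7.04, 6.25 and 6.49 FPKM, and TSC22D3 had 0.808, 0.745 and 0.685. No neighbours in this order overlapped in any library, and the same held with AS1842856. There TSC22D1 was at 77.3, 78.2 and 74.7 FPKM, 3.80 times the mean of TSC22D4.

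The make-up of the family changed with these levels. In DMSO, TSC22D1 made up 46.3% ± 1.99 of the summed FPKM of the 4 members (SD, n = 3) and TSC22D4 37.6% ± 1.49, with 14.5% from TSC22D2 and 1.64% from TSC22D3. With AS1842856 the share of TSC22D1 was 71.9% ± 0.318, that of TSC22D4 18.9% ± 0.470, that of TSC22D2 8.53% and that of TSC22D3 0.65%. The sum went from 45.5 ± 0.838 to 106.7 ± 2.57 FPKM. Without TSC22D1 it went from 24.5 ± 1.31 to 30.0 ± 0.846, so the lower shares of TSC22D2 and TSC22D4 stood beside slightly higher levels.

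**Figure D3:**
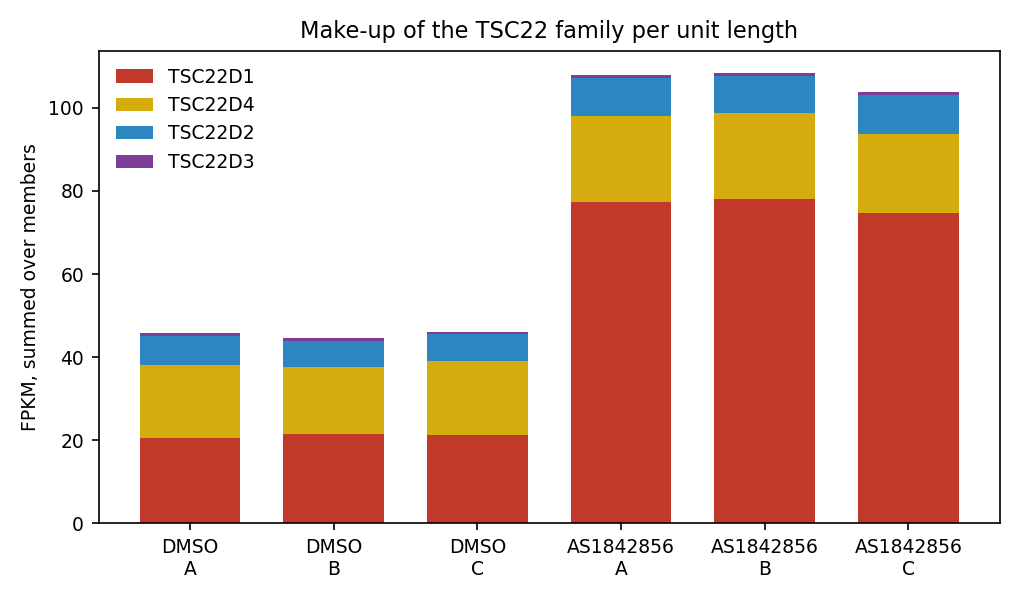
FPKM of the 4 members stacked for each library (vertical axis from 0, FPKM summed over members). The sum is near 45 in each DMSO library and above 100 in each AS1842856 library, and the TSC22D1 part accounts for most of the difference.

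FPKM divides by 1 length per gene, and the transcripts of this family differ in length. The deposited counts and FPKM imply a length between 8583 and 8694 bases for TSC22D1, where the joined exons of GENCODE 29 cover 8586, and between 4764 and 4826 for TSC22D3, where they cover 4766. TSC22D1 has 5 complete coding transcripts, with 258 to 3219 coding bases, and TSC22D3 has 8, with 231 to 600. Counts per gene cannot tell the long and short forms apart. With the shortest complete coding transcript as the length of each gene, a choice made after the data were seen, TSC22D1 was at 63.3 ± 2.16 counts per kilobase of that length and library-size unit in DMSO and TSC22D4 at 43.6 ± 2.30. On that scale TSC22D2 (6.94 ± 0.390) and TSC22D3 (6.29 ± 0.503) lay close together in DMSO, with TSC22D2 the higher in each library. With AS1842856 they stood at 9.55 ± 0.218 and 5.87 ± 0.772. The shares moved with the length used, in DMSO to 5.78% for TSC22D2 and 5.23% for TSC22D3, and with AS1842856 to 3.22% and 1.98%.

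Few reads were listed for genes that overlap the members. TSC22D1-AS1, on the opposite strand at the long start of TSC22D1 (chr13:44575893-44580432), had 38, 29 and 21 counts in DMSO and 30, 58 and 25 with AS1842856, 0.417% of the counts of TSC22D1 over the 6 libraries. It was not called (log2 fold change 0.30, standard error 0.29, adjusted p = 0.383 in edgeR's quasi-likelihood test), and the groups overlapped. C7orf61, on the same strand at the end of TSC22D4, held 0.479% as many counts as that gene. AL139184.1, which lies within TSC22D1, had 3 counts or fewer in every library, and AL138960.2 and NCBP2L had none. The use of strand in counting is not given in the sources used here. Reads of TSC22D1 and its antisense gene thus cannot be told apart where the genes overlap, at chr13:44575893-44577147.

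The promoters of the members were searched for short letter patterns, as a description of their sequence. RefSeq promoter windows (GRCh38.p14, 250 bases before to 50 after a start) matched 3 of the 4 members, all but TSC22D2. They gave 10 windows, 5 for TSC22D1, 4 for TSC22D3 and 1 for TSC22D4, and some windows of a gene overlap. Letters were searched on both strands, and the share of all 34943 windows with a match is given for each. The FOXO letters TGTTTAC were in 1 window, at -147 from the TSC22D3 start at chrX:107717062, and in 3.42% of all windows. The letters CAAAACA of an insulin response sequence were in 2 windows of TSC22D1 and in 4.93% of all. One of the 2 was at -245 from the start at chr13:44436858, near that of a form with 432 coding bases, called the short form below. The other was at -234 from the start at chr13:44437248, near that of a shorter form with 258 coding bases. The half-site AGAACA of the glucocorticoid receptor was in 1 window of TSC22D1 (14.8% of all), and TATAAA in 2 windows of TSC22D1 and 1 of TSC22D3 (11.6% of all). The TCF/LEF letters CTTTGAT (2.63% of all), the SMAD letters GTCTAGAC (0.203%) and the full palindromic glucocorticoid response element (0.00286%) were in none of the 10. These letters are a description and not sites of binding, and a window without them says nothing of the factor. The windows with TGTTTAC and with CAAAACA before the short form are printed without bases that GENCODE 29 counts as exons, on the minus strand, with the matched letters in capitals (CAAAACA reads TGTTTTG here).
TSC22D3, chrX:107717136-107717312: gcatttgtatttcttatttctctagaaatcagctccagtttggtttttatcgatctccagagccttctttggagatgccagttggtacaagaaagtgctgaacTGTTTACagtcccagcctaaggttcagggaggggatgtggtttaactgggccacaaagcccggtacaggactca
TSC22D1 short form, chr13:44436859-44437108: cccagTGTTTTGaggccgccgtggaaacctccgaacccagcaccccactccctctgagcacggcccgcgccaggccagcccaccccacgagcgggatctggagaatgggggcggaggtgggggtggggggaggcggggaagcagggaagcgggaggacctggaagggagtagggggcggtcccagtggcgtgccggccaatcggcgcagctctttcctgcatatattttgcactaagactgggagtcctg
Base composition also differed between the starts of TSC22D1. In the 250 bases before the start it was 79.6% G and C for the long form (chr13:44576566-44576815) and 67.2% for the short form printed above. At the starts at chr13:44474341 and chr13:44437248 it was 34.8%, and complete forms with 258 coding bases begin near each of these. The median of all windows is 58.0%.

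Genes with a pattern like that of each member were sought among 9201 other genes with a mean of at least 10 CPM. The measure was the root mean square difference of log2 CPM over the 6 libraries, each gene being set to its own DMSO mean. Nearest to TSC22D1 were COL16A1 (a collagen, difference 0.055), CD109 (a surface protein that binds TGF-beta, 0.057), MMP2 (a gelatinase, 0.064), AHR (a ligand-activated transcription factor, 0.065) and ZNF697 (a zinc finger gene, 0.068). COL16A1 went from 25.7 to 91.8 CPM and CD109 from 95.9 to 356.0 (means of 3 libraries). Nearest to TSC22D2 were the deubiquitinase gene OTUB1 (0.016), LYSMD1 (0.023) and the Polycomb gene PCGF2 (0.027). For TSC22D4 they were the deubiquitinase gene USP15 (0.028) and the kinase gene MARK3 (0.029), followed by PPA1 (0.030), a pyrophosphatase. TSC22D3, whose counts scatter most, was nearest to UXS1 (0.056), PAK4 (0.059) and MRPL39 (0.064). Genes that change by a like amount score well by this measure whatever they do.

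Around the family, 6 lists of genes were tested with edgeR's quasi-likelihood test over all 14338 genes. With the adjusted p held to 0.05, 56.0% of all genes tested were called, 27.6% higher and 28.4% lower with AS1842856, and each list is to be read against these shares. Of 17 genes for partners of TSC22 proteins and the WNK cascade they act on, 13 were tested, 4 were higher and 6 lower, and the median log2 fold change of the list was -0.12, beside 0.00 over all genes. NRBP1, the pseudokinase that TSC22 proteins bind, had 93.0, 82.9 and 87.6 CPM in DMSO and 105.5, 111 and 107.7 with AS1842856. Its log2 fold change was 0.30 with a standard error of 0.05 (adjusted p = 1.94e-09), and no library of either group reached into the other. WNK1, a chloride-sensing kinase, went the other way, from 192, 184.6 and 187.9 to 154, 157.9 and 159.8 CPM (log2 fold change -0.26, standard error 0.04).

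The kinases below WNK1 also fell. STK39 (SPAK) went from 39.0 ± 1.41 to 25.9 ± 0.355 CPM (SD, n = 3 each), with a log2 fold change of -0.59, and OXSR1 from 193 ± 4.66 to 148.8 ± 3.53, a log2 fold change of -0.38. WNK4 fell by 2.33 on the log2 scale to 24, 27 and 20 counts, but COA3 overlaps it from the other strand with 562% as many counts, and its own level is uncertain. SLC12A2, the sodium-potassium-chloride cotransporter that SPAK activates, rose from 43.4, 43.4 and 43.9 to 86.4, 89.1 and 80.6 CPM (log2 fold change 0.97, standard error 0.05, adjusted p = 8.22e-46 in edgeR's test). SLC12A7, a cotransporter that carries chloride out, rose by 0.55, a call that was lost with limma on log2(FPKM + 0.1) and on log2(FPKM + 1) with no filter. CAB39, a scaffold for SPAK, rose by 0.16. The cascade thus held genes that rose and genes that fell, and its share of calls is not set apart from all genes by a test.

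The list of osmotic stress genes was smaller, with 6 of 8 tested, 2 higher and 2 lower, and a list median of -0.13, which was 0.11 with DESeq2, 0.10 with no filter and 0.03 with limma on log2(FPKM + 1) and no filter. Under each of these settings 1 gene was higher. Without AS1842856 replicate A the list median was -0.08. NFAT5, the transcription factor of the hypertonic response, fell by 0.36 on the log2 scale, and the amino acid transporter gene SLC38A2 fell by 0.38. SLC6A6, the taurine transporter gene, rose by 0.32 and AKR1B1, aldose reductase, by 0.13, a call that was lost with DESeq2, with no filter (edgeR, and limma on log2(FPKM + 1)), and without DMSO replicate C or AS1842856 replicate C. SLC5A3 (0.11) and HSPA1B (-0.37) were not called. HSPA1B was called with no filter, with the replicate block, and without AS1842856 replicate A or B. Reads of SLC5A3 are shared with MRPS6, in which it lies, and those of HSPA1B can be split with its near-identical copy HSPA1A.

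TSC22D3 is a gene that glucocorticoids induce, so the receptor and its other targets were listed. Of 18 genes, 12 were tested, 2 were higher and 7 lower. The list's median was -0.34, and -0.15 with limma on log2(FPKM + 1) and no filter. NR3C1, the glucocorticoid receptor gene, fell from 204, 218 and 214.6 to 148.9, 141 and 141 CPM (log2 fold change -0.56, standard error 0.04, adjusted p = 3.89e-33). The metallothionein gene MT2A fell by 0.94 on the log2 scale, DUSP1, a phosphatase that turns off MAP kinases, by 0.81, and the kinase gene SGK1 by 0.50. GLUL, glutamine synthetase, rose from 81.5 ± 3.39 to 214.6 ± 6.94 CPM (SD, n = 3 each), with a log2 fold change of 1.39, and the thiamine transporter gene SLC19A2 by 0.48. FKBP5, the target most often used to read out the receptor, had 1 count or none in every library, as did ZBTB16. KLF9 (log2 fold change -0.10), PER1 (-0.14) and RGS2 (-0.33) were not called.

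For FOXO factors and target genes other than TSC22D3, 23 of 30 were tested, 6 were higher and 12 lower. The list's median was -0.55 (-0.07 with limma on log2(FPKM + 1) and no filter). Among the higher calls, that of CAT (0.22) was lost under 6 of 15 alternatives, with DESeq2 among them. SOD2, INSR and GADD45A, which the study itself examined in these samples, are among the 12, so the count is not independent of that choice. FOXO1 had 3.69, 4.88 and 4.09 CPM in DMSO and 13.8, 13.5 and 14.0 with AS1842856, and FOXO3 had 47.5, 46.4 and 46.5 against 150.1, 146.9 and 151.5. Their log2 fold changes were 1.72 (standard error 0.13) and 1.67 (standard error 0.05), beside 1.87 (standard error 0.04) for TSC22D1. That of FOXO4 was -1.05 (standard error 0.33). On log2(FPKM + 1), which understates low genes, FOXO1 stood at 0.93 and TSC22D1 at 1.82. Among the targets, FBXO32, a muscle atrophy ubiquitin ligase gene, fell from 165 ± 3.31 to 39.7 ± 2.16 CPM (SD, n = 3 each). KLF2, a transcription factor gene that FOXO1 controls in lymphocytes, fell by 1.66 on the log2 scale, SOD2 (mitochondrial superoxide dismutase) by 1.19 and MXI1, a MYC antagonist, by 1.18. BCL2L11, the cell death gene also called BIM, rose by 1.77 and the insulin receptor substrate gene IRS2 by 1.03. BCL2L11 overlaps MIR4435-2HG, which held 171% as many counts, and SOD2 overlaps WTAP, which held 43.9%, both on the opposite strand. The target that names the list's link to the family, TSC22D3, stood at -0.11, between these.

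TSC22D1 carries TGF-beta in its name, and all 20 genes listed for that pathway were tested, with 9 higher, 10 lower and a list median of -0.10. Of these calls, SMAD2 (0.13) and SMAD4 (-0.19) had groups that overlapped, and 9 and 5 of 15 alternatives lost them (with DESeq2, 8 genes were higher and 9 lower). SMAD2 was lost without DMSO replicate A or C or AS1842856 replicate A or B, and SMAD4 without DMSO replicate B. The ligand gene TGFB2 rose from 16.6, 16.7 and 16.7 to 86.1, 91.0 and 88.2 CPM (log2 fold change 2.41, standard error 0.06, adjusted p = 7.06e-103 in edgeR's test). TGFB3 rose by 1.74, and overlaps IFT43, which held 79.9% as many counts, on the opposite strand. TGFB1 fell by 0.57 on the log2 scale, from 98.6 to 66.2 CPM (means), and is overlapped by HNRNPUL1 with 663% as many counts. Of the receptors, TGFBR1 fell by 0.79 on the log2 scale and TGFBR2 rose by 0.38. SMAD3, a signal carrier of the pathway, fell from 102.4 ± 2.87 to 41.5 ± 3.35 CPM (SD, n = 3 each), and SMAD7, its inhibitor, rose by 0.79. The target genes were split. PMEPA1, a feedback inhibitor, rose from 46.5, 43.4 and 47.6 to 347.1, 352.5 and 332.8 CPM, a log2 fold change of 2.91. CTGF, a matricellular growth factor gene, fell from 460.6, 453.2 and 416.8 to 87.8, 81.6 and 80.8 CPM, a log2 fold change of -2.41. BHLHE40, a transcriptional repressor gene, rose by 1.27, while LTBP2, a matrix protein gene, fell by 1.45.

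Of 6 genes whose proteins TSC22D3 binds, 3 were higher and 1 lower. The list's median was 0.04, and 0.02 without AS1842856 replicate C. JUN, a subunit of AP-1, rose from 307.8 ± 11.1 to 509.6 ± 5.09 CPM (SD, n = 3 each), with a log2 fold change of 0.73. FOS, its partner, rose by 0.97 at low counts, and RELA, a subunit of NF-kB, rose by 0.12, a call that was lost with no filter (edgeR, and limma on log2(FPKM + 1)) and without AS1842856 replicate C. MITF, a transcription factor of pigment and mast cells, fell by 1.24, and HRAS (-0.10) was not called.

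**Figure D4:**
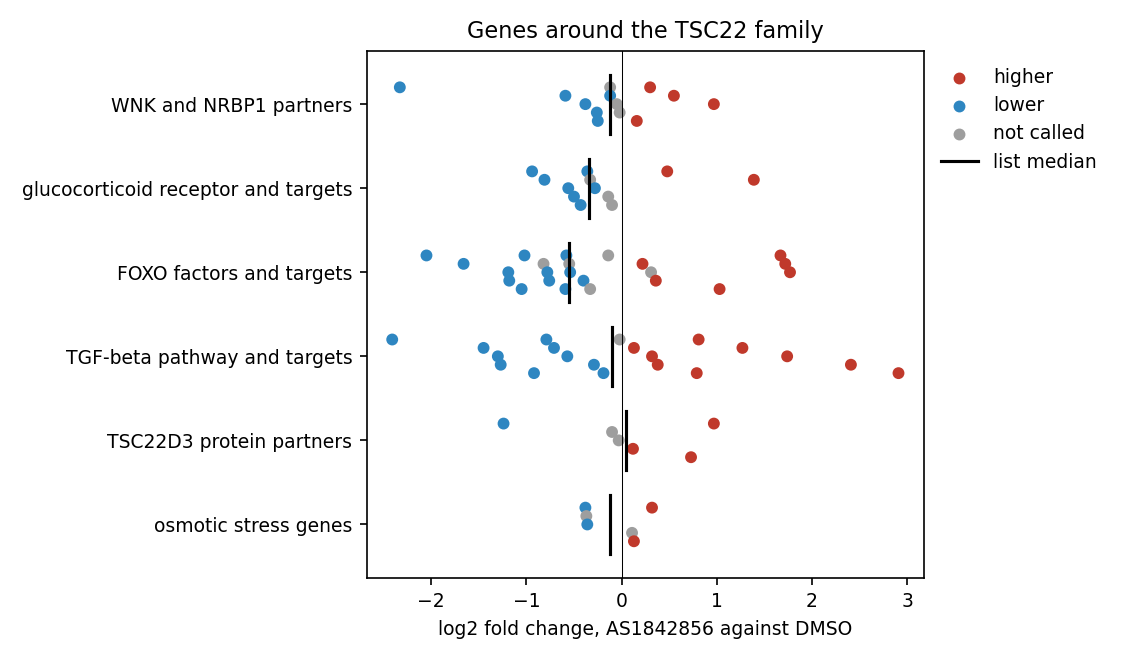
Log2 fold change (horizontal axis) of each tested gene in the 6 lists (rows, with points spread vertically for legibility only). Red and blue points are genes that edgeR called higher and lower (adjusted p, threshold 0.05), grey points were not called, and black lines are list medians, which run from -0.55 for the FOXO list to 0.04 for the partners of TSC22D3.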

How the data were processed

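RNA-Seq was measured in 6 libraries, and groups came from the treatment label of each sample. The authors deposited raw counts per gene, not normalized, and FPKM per library. The study's methods name CASAVA and STAR, while the submitters' processing notes list CASAVA and Bowtie 0.12.2 with GRCh38, and the counting tool and annotation are not given in the sources used here. All 58735 identifiers were found in GENCODE 29, which gave symbols and positions. SOD2 stands on 2 identifiers, and the one with 26397 counts was used. The counts were fitted with edgeR 4.0.16 (R 4.3.3), using filterByExpr (minimum count 10, minimum total 15), TMM, and glmQLFit and glmQLFTest with robust estimation and no block. Benjamini-Hochberg adjustment ran over 14338 genes, with a threshold of 0.05. The common biological coefficient of variation was 0.0374. The standard error was the log2 fold change divided by the square root of F. Alternatives used DESeq2 1.42.0, limma 3.58.1 on log2(FPKM + 1) or log2(FPKM + 0.1) with a floor of 0.5 on mean FPKM or no filter, other scalings and filters, a block and libraries left out.

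Members and lists were chosen with earlier results of these data known. The lists were written from general knowledge. The genes named were the members, every tested gene of lists with fewer than 12 tested, the 4 largest increases and decreases among the calls of longer lists, NR3C1, FOXO1, FOXO3, FOXO4, NRBP1 and WNK1, genes that overlap a member, and the nearest patterns (5 for TSC22D1, 3 for each other member). FKBP5, ZBTB16, KLF9, PER1, RGS2, INSR, GADD45A, TGFB1, SMAD2, SMAD4, TGFBR1, TGFBR2, SMAD7, the markers and the genes that overlap list genes were named outside the rule, after their values were seen. Some genes that the rule names are not reported here. The study calls the libraries biological replicates. No libraries were duplicates: the chi-square over its degrees of freedom was 2.38 to 3.28 for replicate pairs, above sampling noise. On counts simulated for this comparison, edgeR recovered 94.5% of 200 changed genes among 14308, with 0.53% false calls. DESeq2 recovered 87% among 26318 genes, with 1.14% false calls, and limma 95% among 14418, with 2.06%. Those counts held 200 changed genes, while edgeR called 8029 genes in the data. Whether these rates hold for the calls in the data was not tested.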

Additional observations from a re-analysis of the deposited data

How the results depend on the processing

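The log2 fold changes of the members moved little. Under the 9 alternatives that kept all libraries they ran from 1.82 to 1.87 for TSC22D1, from 0.41 to 0.46 for TSC22D2, from -0.12 to -0.04 for TSC22D3 and from 0.22 to 0.24 for TSC22D4. The value of 1.82 came from limma on log2(FPKM + 1), filtered or not; that pseudocount shrinks fold changes. With each library left out in turn they ran from 1.84 to 1.88 for TSC22D1, from 0.42 to 0.51 for TSC22D2, from -0.21 to -0.04 for TSC22D3 and from 0.19 to 0.27 for TSC22D4. Over all genes, 8029 were called, from 6453 (limma on FPKM with no filter) to 8030 under the alternatives with all libraries, and from 7427 to 7678 with a library left out. DESeq2 called 6791. Each list kept a count within 1.5 times its own, but list medians moved more. With limma on log2(FPKM + 1) and no filter they were -0.07 (FOXO), -0.15 (glucocorticoid), -0.03 (WNK) and 0.03 (osmotic). The WNK median was -0.19 and the osmotic median 0.10 with no filter, and -0.18 and 0.11 with DESeq2. With its filter, limma on log2(FPKM + 1) gave -0.06 (WNK) and -0.07 (osmotic). Without AS1842856 replicate A the medians were -0.06 (WNK) and -0.08 (osmotic). Without AS1842856 replicate C the median of the TSC22D3 partners was 0.02. On log2(FPKM + 1), log2 fold changes of genes with low FPKM shrank by over 1.5 times, to -0.84 for WNK4, 0.30 for SLC12A7, -0.33 for SGK1, 0.93 for FOXO1, -0.29 for FOXO4, 0.52 for IRS2, -0.45 for MXI1, 0.47 for FOS, -0.54 for MITF and -0.23 for NFAT5. Still, of 64 list genes called, 57 were called under each of the 15 alternatives that tested them (FOXO4 was tested in 12) and none of the 64 changed direction. The 7 others were SLC12A4, SLC12A7, CAT, SMAD2, SMAD4, RELA and AKR1B1, while RGS2 (without DMSO replicate B) and HSPA1B gained a call. List genes that only some alternatives tested are not in these counts. The FOXO list had 7 higher of 24 tested without DMSO replicate A or without DMSO replicate B. With the shortest complete coding transcript as length, the share of TSC22D1 was 52.7% in DMSO and 77.5% with AS1842856, that of TSC22D2 5.78% and 3.22%, that of TSC22D3 5.23% and 1.98%, and that of TSC22D4 with AS1842856 17.3%, because the lengths differ. The deviations of same-letter libraries showed no shared pattern between the groups (correlations between -0.02 and 0.00). Whether cultures with the same letter were handled together is not given in the sources used here. With the replicate block 7862 genes were called and the members stood at 1.87, 0.46, -0.10 and 0.24. Depth limits TSC22D3 most, at 55 to 85 counts per library.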
